A study of Mus musculus with 36 samples.

Results

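The genes described here encode the voltage-gated calcium and sodium channels of the mouse. They comprise the pore-forming calcium channel subunits (Cacna1), their alpha2delta, beta and gamma subunits (Cacna2d, Cacnb and Cacng), the pore-forming sodium channel subunits (Scn genes ending in a) and the sodium channel beta subunits (Scn genes ending in b). They were taken by symbol from the deposited count table, protein-coding genes only, and number 40 of 24940 genes. Of these, 10 encode calcium channel pores, 4 alpha2delta, 4 beta and 8 gamma subunits, 10 sodium channel pores and 4 sodium channel beta subunits.

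A depolarised membrane opens the pore of such a channel. Sodium channels carry the upstroke of the action potential and are held at the axon initial segment and the nodes of Ranvier. Calcium channels turn depolarisation into calcium entry, which triggers transmitter release, firing patterns and gene expression. Alpha2delta and beta subunits bring calcium channels to the surface and tune their gating. Several gamma subunits are better known as transmembrane AMPA receptor regulatory proteins, which escort glutamate receptors rather than calcium channels. In brain these genes are mostly known from neurons.

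Poly(A) RNA was sequenced from 36 libraries of male mice, 30 of them from bulk tissue and 6 from sorted microglia. The MSA mice carry the MBP29-hα-syn transgene, human α-synuclein under a myelin basic protein promoter active in oligodendrocytes, which models multiple system atrophy. The protocol calls the control mice wild type. From 4 weeks of age, for 12 weeks, mice of either genotype were fed PLX5622 at 1200 mg/kg, which blocks the microglial survival receptor CSF1R, or standard chow, which the labels tag as no treatment and which is called placebo here. The bulk samples were archived frozen tissue. The groups were MSA on PLX5622, MSA on placebo, control on PLX5622 and control on placebo, each in cortex (3 libraries per group), corpus callosum (3 in placebo controls, 2 in each other group) and striatum (3 in placebo MSA mice, 2 in each other group). Microglia were sorted from the forebrain of 16-week-old mice as CD11b-positive, CD45-low cells, with 3 libraries from MSA and 3 from control mice and no diet arm. The labels tag the MSA microglia as homozygous and the control microglia as heterozygous for MBP29, whereas the protocol names wild-type mice, so whether the control microglia carry 1 copy of the transgene is unclear. The labels do not say which libraries come from separate animals, so a p-value here reflects only how far these libraries spread, which may be technical.

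Counts in genes lay between 4360339 and 9787220 per cortical library, between 4594666 and 28622744 per callosal library, between 5177520 and 11267236 per striatal library and between 5951129 and 12110865 per microglial library. Neuronal marker genes summed to 3262 to 8990 CPM (counts scaled to a library of 1000000) in the bulk libraries and to at most 16.5 CPM in microglia, while microglial markers summed to 55301 to 58213 CPM in microglia. The 2 control striatum libraries titled as PLX5622 carry a no-treatment tag. Their microglial markers summed to 19.5 and 13.8 CPM, against 483 and 504 CPM in control striatum on placebo. On PLX5622 these markers summed to 126 to 276 CPM in the MSA bulk libraries and 13.7 to 34.7 CPM in the control ones. The corpus callosum libraries held varying amounts of striatal projection neuron markers, summing to 486 to 2814 CPM. In bulk tissue, fewer cells of a type and less RNA per cell cannot be told apart.

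Levels differed widely between the channel genes. They are compared here in the deposited TPM, transcripts scaled by length, which allow a comparison between genes. Summed over the 40 genes, they reached 2267 to 2819 TPM in striatum, 1325 to 1977 TPM in corpus callosum, 1249 to 2573 TPM in cortex and 134 to 165 TPM in microglia. In each bulk region a few small auxiliary subunits held most of this sum. The sodium channel beta subunits, single-pass proteins with an immunoglobulin fold, made up a median of 45.8% of it in striatum, 41.0% in corpus callosum and 44.3% in cortex. By median TPM, 7 genes exceeded 100 TPM in striatum, 3 in corpus callosum, 4 in cortex and 0 in microglia, whereas 9, 10, 9 and 34 genes stood under 1 TPM. The heat map of all libraries shows the low genes at the dark end of every row, among them the skeletal muscle sodium channel Scn4a, the retinal calcium channel Cacna1f and the sensory neuron sodium channels Scn10a and Scn11a.

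**Figure D1:**
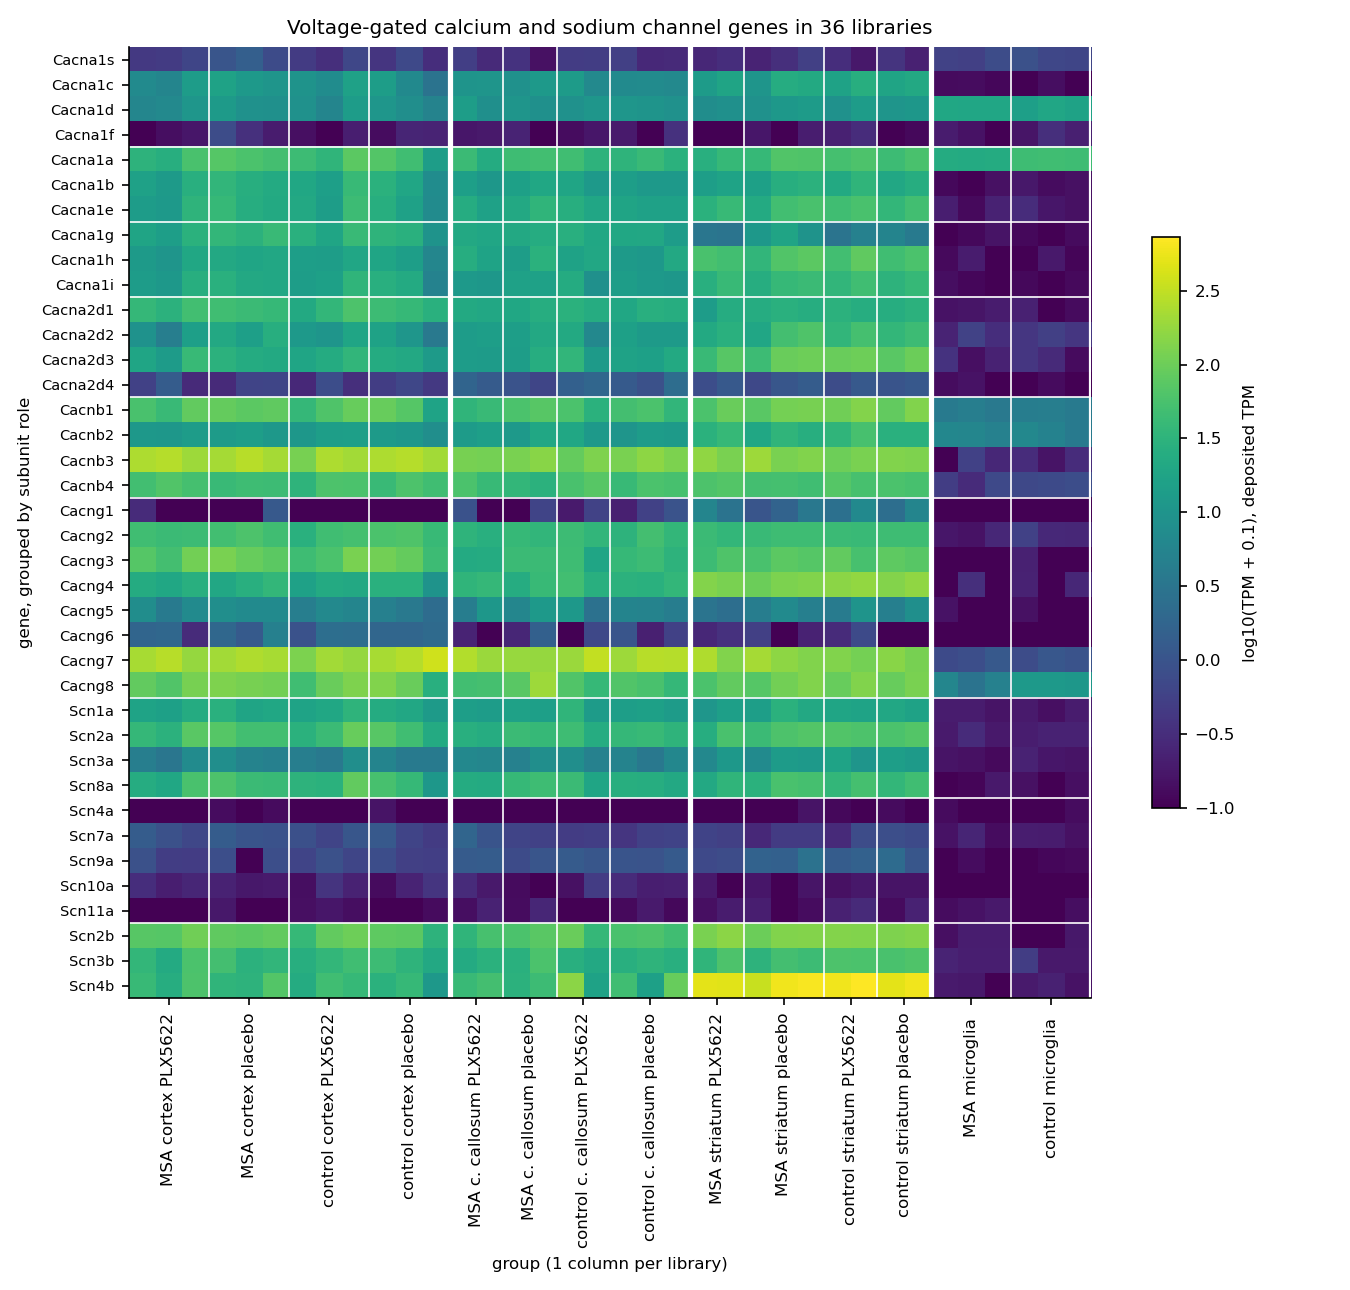
Deposited TPM of 38 channel genes (rows, grouped by subunit role) in each of the 36 libraries (columns, grouped by region, genotype and diet), as log10(TPM + 0.1). Scn4b is brightest in the striatal columns, and in the microglial columns Cacna1a and Cacna1d stand out among mostly dark rows.

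Striatum and cortex differed in most of the channel genes that could be tested. After the filter on low counts 37 of the 40 were tested in the bulk libraries, and Cacna1f, Scn4a and Scn11a were not. Between striatum and cortex 27 of the 37 passed the threshold of an adjusted p of 0.05, 16 higher and 11 lower in striatum. Over all genes tested, 39.3% passed in this comparison, with 18.6% higher and 20.6% lower. The median log2 difference was 0.03 over the channel genes and -0.04 over all genes, so the genes moved both ways. All 3 kinds of low-voltage, or T-type, calcium channel pore changed, and they did so in opposite directions.

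The 2 largest differences in well-counted genes concerned auxiliary subunits. Scn4b, a beta subunit associated with resurgent sodium current, ranged from 339 to 727 TPM in striatum with a median of 592, against 11.6 to 66.5 TPM with a median of 35.9 in cortex. The lowest striatal library lay above the highest cortical one. The log2 difference was 3.86 ± 0.33 (SE, adjusted p = 3.07e-09, edgeR). Cacng4, an AMPA receptor regulatory protein, ranged from 99.5 to 160.8 CPM with a median of 135.4 in striatum, against 11.9 to 35.5 CPM with a median of 24.2 in cortex. Its log2 difference was 2.51 ± 0.15 (adjusted p = 8.56e-12), again with no overlap between regions.

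Scn4b has a CpG-rich start in the RefSeq promoter table for GRCm38.p6. The window from 250 bases before to 50 after its start (chr9:45138374-45138673, plus strand) holds 26 CpG dinucleotides, against a median of 7 over all 32851 promoters in that table. The transcript to which the deposited table assigns the counts starts downstream of this window, at 45139042. It is printed because Scn4b differs most between regions among the well-counted members, and capitals mark GAGGAA, the core bound by the macrophage and microglia factor PU.1, searched on both strands as GAGGAA or TTCCTC.
Scn4b promoter: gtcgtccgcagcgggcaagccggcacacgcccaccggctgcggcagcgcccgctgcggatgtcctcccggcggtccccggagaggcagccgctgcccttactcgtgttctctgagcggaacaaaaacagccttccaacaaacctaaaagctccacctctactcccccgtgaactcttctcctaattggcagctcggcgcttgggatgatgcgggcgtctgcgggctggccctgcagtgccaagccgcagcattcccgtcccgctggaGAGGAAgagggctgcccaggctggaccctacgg
That hexamer stood in 28.3% of all promoters of this length and in 10 of the 41 promoters found for 30 of the 40 channel genes, so its presence here is a description only.

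Among the T-type pores, which open near the resting potential and support burst firing, the regional order turned over from gene to gene. Cacna1g ranged from 16.9 to 95.8 CPM in striatum with a median of 26.9, against 69.8 to 239 CPM with a median of 168 in cortex, a log2 difference of -2.44 ± 0.19 (adjusted p = 3.81e-10). Only the highest striatal library, from an MSA mouse on placebo, reached into the cortical range. Cacna1h ranged from 210 to 448 CPM in striatum with a median of 320.0, against 43.1 to 120.5 CPM with a median of 102.9 in cortex. It was higher in striatum by 1.80 ± 0.18 on the log2 scale (adjusted p = 9.9e-09), with no overlap. Cacna1i was also higher in striatum, by 0.79 ± 0.21 (adjusted p = 0.00413). In corpus callosum Cacna1g kept to 87.8 to 159 CPM. There it was 2.01 ± 0.20 higher than in striatum (adjusted p = 3.4e-08), and its log2 difference from cortex was -0.42 ± 0.18 (adjusted p = 0.0717).

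**Figure D2:**
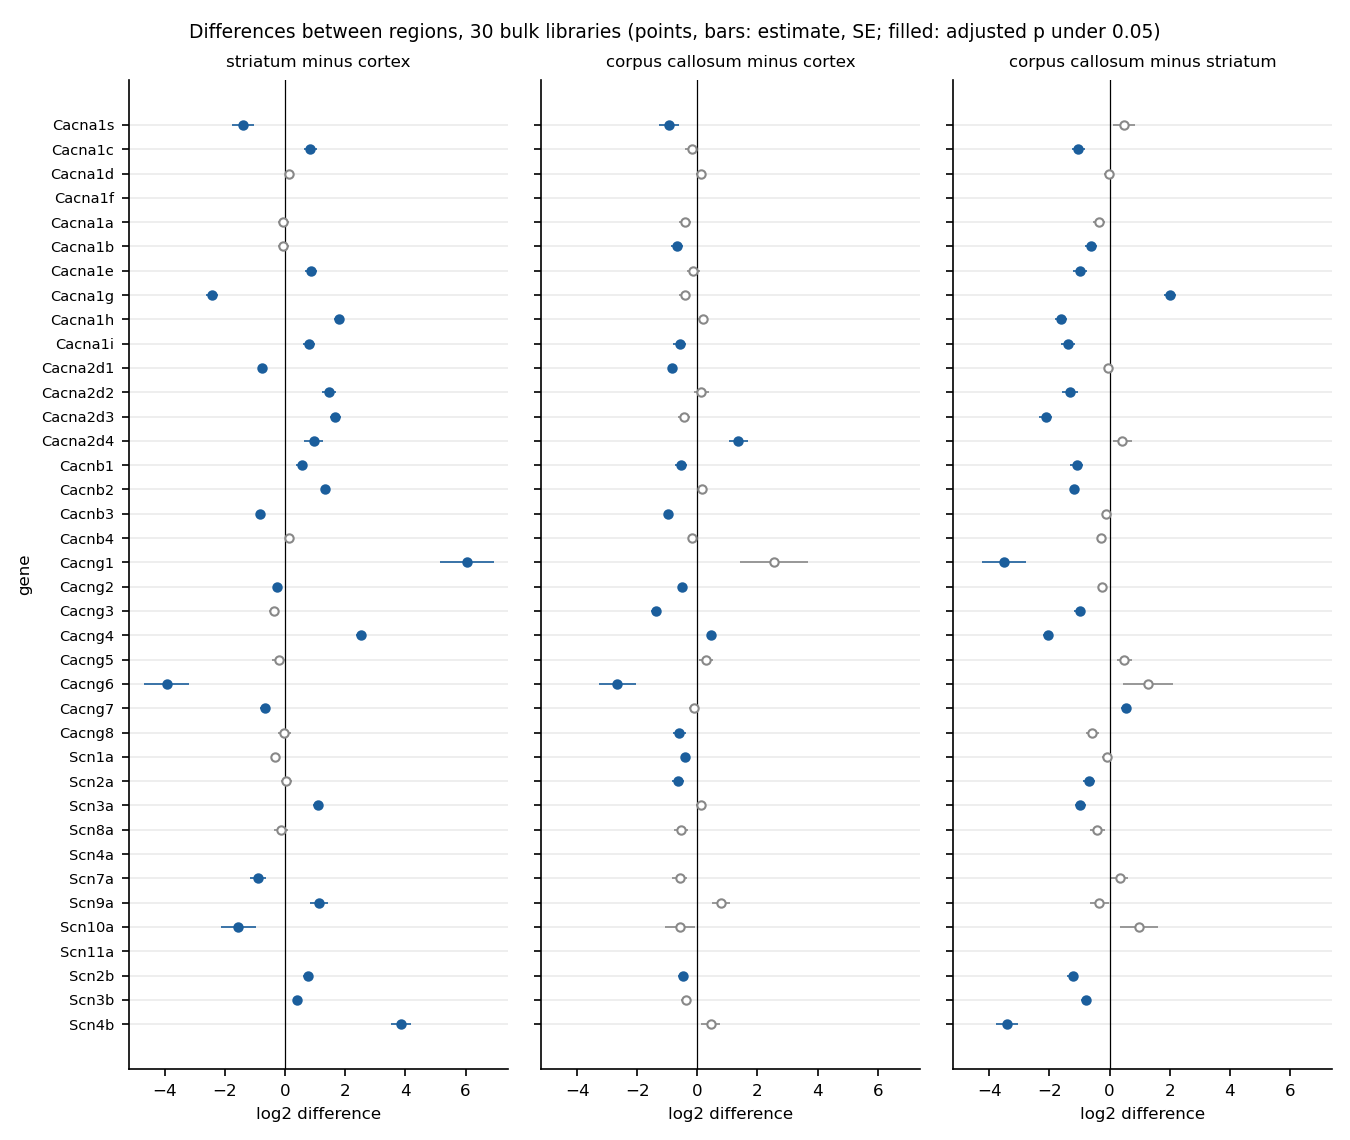
Log2 differences between regions from 30 bulk libraries for 35 of the 37 tested channel genes, with the standard error of the fit as bars and filled points for an adjusted p under 0.05. Scn4b, Cacng4 and Cacna1h lie to the right and Cacna1g to the left in striatum minus cortex, while most filled points in corpus callosum minus cortex lie to the left, and the large values of Cacng1 and Cacng6 rest on few counts.

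Of the 6 high-voltage calcium channel pores tested, 3 passed between striatum and cortex. Cacna1c, the main neuronal and cardiac L-type pore, was higher in striatum than in cortex by 0.84 ± 0.21 on the log2 scale (adjusted p = 0.00229), with medians of 17.9 TPM in striatum and 9.76 TPM in cortex. Cacna1e, the R-type pore, was higher by 0.85 ± 0.21 (adjusted p = 0.00219), with medians of 47.6 TPM in striatum and 21.6 TPM in cortex. For Cacna1a, the P/Q-type pore of fast transmitter release, the log2 difference between striatum and cortex was -0.06 ± 0.19 (adjusted p = 0.844), and for Cacna1b, the N-type pore, it was -0.06 ± 0.18 (adjusted p = 0.829). Cacna1d, the L-type pore of pacemaking neurons, had a difference of 0.14 ± 0.14 (adjusted p = 0.454). Cacna1s, the skeletal muscle pore, was lower in striatum by a log2 difference of -1.41 ± 0.36 (adjusted p = 0.00277) at medians of 0.22 TPM in striatum and 0.456 TPM in cortex.

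Of the 4 alpha2delta genes, 3 were higher and 1 was lower in striatum than in cortex. Cacna2d3 ranged from 113.6 to 249.7 CPM in striatum with a median of 227.8, against 37.4 to 98.2 CPM with a median of 60.2 in cortex, with no overlap between regions. Its log2 difference was 1.67 ± 0.19 (adjusted p = 1.16e-07). Cacna2d2 was higher by 1.45 ± 0.24 (adjusted p = 4.65e-05). Cacna2d1, which with Cacna2d2 is the target of gabapentin, was lower, with a log2 difference of -0.76 ± 0.13 (adjusted p = 2.63e-05).

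The beta subunits, cytosolic proteins that bind the pore, split as well. Cacnb2 was higher in striatum by 1.32 ± 0.12 (adjusted p = 4.08e-09), with medians of 28.8 TPM in striatum and 12.1 TPM in cortex. Cacnb3, the most abundant of the 4 in every bulk region, was lower, with a log2 difference of -0.85 ± 0.13 (adjusted p = 1.42e-05) and medians of 128.6 TPM in striatum and 231.9 TPM in cortex. For Cacnb4 the difference was 0.12 ± 0.12 (adjusted p = 0.452).

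The gamma family held the extremes at low counts. Cacng1, a subunit of the skeletal muscle calcium channel, had 213 counts over the 9 striatal libraries and was above 0 in all 9. In cortex it had 8 counts in all, in 2 of the 12 libraries. Cacng6, its muscle relative, had 15 counts over the 9 striatal, 44 over the 9 callosal and 167 over the 12 cortical libraries. Both genes passed the test between striatum and cortex (adjusted p = 1.4e-05 for Cacng1 and 0.000164 for Cacng6). Skeletal muscle markers, as a list of 10 genes, summed to 74.3 to 194 CPM in the striatal and 30.4 to 59.4 CPM in the cortical libraries, and their part in the Cacng1 difference was not tested. Among the AMPA receptor regulatory proteins, Cacng7 was lower in striatum with a log2 difference of -0.66 ± 0.17 (adjusted p = 0.00248), and Cacng8 had a difference of -0.02 ± 0.21 (adjusted p = 0.951).

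Of the 4 brain sodium channel pores, Scn3a passed between striatum and cortex. Scn3a, best known from the embryonic brain, was higher in striatum by 1.08 ± 0.17 on the log2 scale (adjusted p = 1.68e-05), with medians of 12.1 TPM in striatum and 4.56 TPM in cortex. Scn2a and Scn8a, the main pores of the axon initial segment, had differences of 0.03 ± 0.19 (adjusted p = 0.918) and -0.13 ± 0.23 (adjusted p = 0.687). Scn1a, prominent in fast-spiking interneurons, had a difference of -0.33 ± 0.15 (adjusted p = 0.0847). Of the pores known from heart, glia and sensory neurons, Scn9a was higher in striatum by 1.13 ± 0.30 (adjusted p = 0.00449), and Scn7a and Scn10a were lower, both at medians under 1.5 TPM. Of the sodium channel beta subunits, Scn2b and Scn3b were also higher in striatum, by 0.75 ± 0.16 (adjusted p = 0.000653) and 0.40 ± 0.15 (adjusted p = 0.0407).

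In corpus callosum most of the changed channel genes were below cortex. Of the 37 tested, 17 passed, 2 higher and 15 lower, where 30.0% of all genes tested passed, 15.9% higher and 14.1% lower. The median log2 difference was -0.42 over the channel genes and 0.00 over all genes. Neuronal markers summed to a median of 5580 CPM in corpus callosum and 8128 CPM in cortex, and oligodendrocyte markers to 22494 CPM in corpus callosum and 3346 CPM in cortex. Their part in these differences was not tested.

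Cacng3 fell most among the well-counted genes. It ranged from 22.9 to 51.1 CPM in corpus callosum with a median of 44.6, against 59.0 to 123.6 CPM with a median of 89.9 in cortex, with no overlap. Its log2 difference was -1.37 ± 0.17 (adjusted p = 1.92e-06). Cacnb3 was lower by a log2 difference of -0.97 ± 0.13 (adjusted p = 6.63e-06) and Cacna2d1 by -0.83 ± 0.13 (adjusted p = 2.28e-05). Cacng6 and Cacna1s also were lower, at medians of 0.158 and 0.272 TPM in corpus callosum. Further lower genes were Cacna1b, Cacna1i, Cacnb1, Cacng2, Cacng8, Scn1a, Scn2a and Scn2b, with log2 differences from -0.68 to -0.41.

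The 2 genes above cortex were Cacna2d4 and Cacng4. Cacna2d4, an alpha2delta subunit known from photoreceptors, ranged from 2.18 to 10.2 CPM in corpus callosum, against 0.715 to 5.37 CPM in cortex, a log2 difference of 1.37 ± 0.31 (adjusted p = 0.00159). Cacng4 was higher by 0.46 ± 0.15 (adjusted p = 0.0195). Scn4b ranged from 51.1 to 472 CPM across the callosal libraries, and the library with the highest value, control on PLX5622 replicate 1, also had the highest striatal marker sum, 2814 CPM. Without the 2 callosal libraries of highest striatal marker sum, 17 genes passed, 15 of them among the 17 above. Cacng4 was not among these (0.31, adjusted p = 0.134), and over the 30 fits that left out 1 library it passed in 26, with adjusted p values up to 0.0824.

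Against striatum, corpus callosum had 20 of 37 channel genes past the threshold, 3 higher and 17 lower, where 30.3% of all genes passed, 17.4% higher and 12.9% lower. Among the genes above striatum were Cacna1g and Cacng7, with log2 differences of 2.01 and 0.55. The largest decreases in well-counted genes were in Scn4b (-3.42 ± 0.37, adjusted p = 2.54e-07), Cacna2d3 (-2.12 ± 0.21, adjusted p = 4.9e-08) and Cacng4 (-2.06 ± 0.16, adjusted p = 2.31e-09). Cacna1h was lower by a log2 difference of -1.61 ± 0.19 (adjusted p = 6.25e-07) and Cacna1i by -1.38 ± 0.23 (adjusted p = 6.37e-05). Cacng1 was also lower, at 43 counts over 9 callosal libraries against 213 over 9 striatal ones.

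Across the 3 pairs of regions, 5 genes passed in every pair, among them Cacna1i, Cacnb1, Cacng4 and Scn2b, and 22 passed in 2 pairs. No pair passed for 5 of the tested genes, namely Cacna1a, Cacna1d, Cacnb4, Cacng5 and Scn8a. The pairs share libraries, so these counts are not independent. With the placebo control libraries alone, fewer channel genes passed: 14 between striatum and cortex, 2 between corpus callosum and cortex and 9 between corpus callosum and striatum. Calls over all genes fell as well, to 2077, 473 and 980, from 6312, 4822 and 4875 with all bulk libraries.

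The genes that work beside these channels also differed by region. The lists held 94 genes of voltage-gated potassium channels, axon initial segment and node proteins, calcium channel partners, AMPA receptors with their auxiliaries and the sodium leak channel complex, and 91 were tested. Between striatum and cortex 27 were higher and 35 lower, and between corpus callosum and cortex 6 were higher and 38 lower. Between corpus callosum and striatum 21 were higher and 33 lower. Over all genes tested, the shares higher and lower were 18.6 and 20.6%, 15.9 and 14.1%, and 17.4 and 12.9%, in that order. The axon initial segment and node list, for example, had 9 of 18 genes higher and 3 lower in striatum than in cortex. In corpus callosum Cntn2 and Nfasc, cell adhesion proteins of the node and its flanks, were above cortex. Their log2 differences were 1.55 ± 0.17 (adjusted p = 1.37e-07, edgeR) and 1.19 ± 0.17 (adjusted p = 1.08e-05). Fgf13 and Nrcam of the same list were below cortex, with log2 differences of -1.06 ± 0.14 (adjusted p = 2.94e-06, edgeR) and -0.64 ± 0.17 (adjusted p = 0.0063).

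Sorted microglia expressed a narrow set of the channel genes. By median TPM over the 6 libraries of both genotypes, Cacna1a stood at 34.6, Cacna1d at 19.1, Cacng8 at 8.34, Cacnb2 at 5.44 and Cacnb1 at 4.05. By the same measure, 34 of the 40 genes were under 1 TPM. The medians of Cacna1a and Cacng8 fall between the genotypes. Cacna1a had 45.3 to 47.0 TPM in control and 23.1 to 23.9 TPM in MSA microglia. Cacng8 had 10.8 to 12.1 TPM in control and 2.89 to 5.86 TPM in MSA microglia. In the 3 control libraries together, 15 of the 40 genes had 3 counts or fewer, and Cacng1, Cacng6 and Scn10a had none in any of the 6 libraries. A count of 0 allows up to 3 counts in a library, so these genes were below detection at this depth.

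Against whole cortex of placebo control mice, 33 of 35 tested channel genes passed, 1 higher and 32 lower in control microglia, where 70.8% of all genes tested passed, 32.1% higher and 38.7% lower. These are different preparations, sorted cells and whole frozen tissue. Cacna1d, the exception, had 97.8, 122.7 and 107.4 CPM in control microglia, against 66.7, 52.6 and 42.5 CPM in placebo control cortex. All microglial values lay above all cortical ones. It was higher by 1.14 ± 0.27 on the log2 scale (adjusted p = 0.00662). Cacna1a stood at 253.5 ± 4.34 CPM in microglia and 240.7 ± 131 CPM in cortex (SD, n = 3 each), a log2 difference of 0.17 ± 0.48 (adjusted p = 0.767). The wide cortical spread came from replicate 3, at 99.1 CPM against 358 and 265 CPM in the other two.

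**Figure D3:**
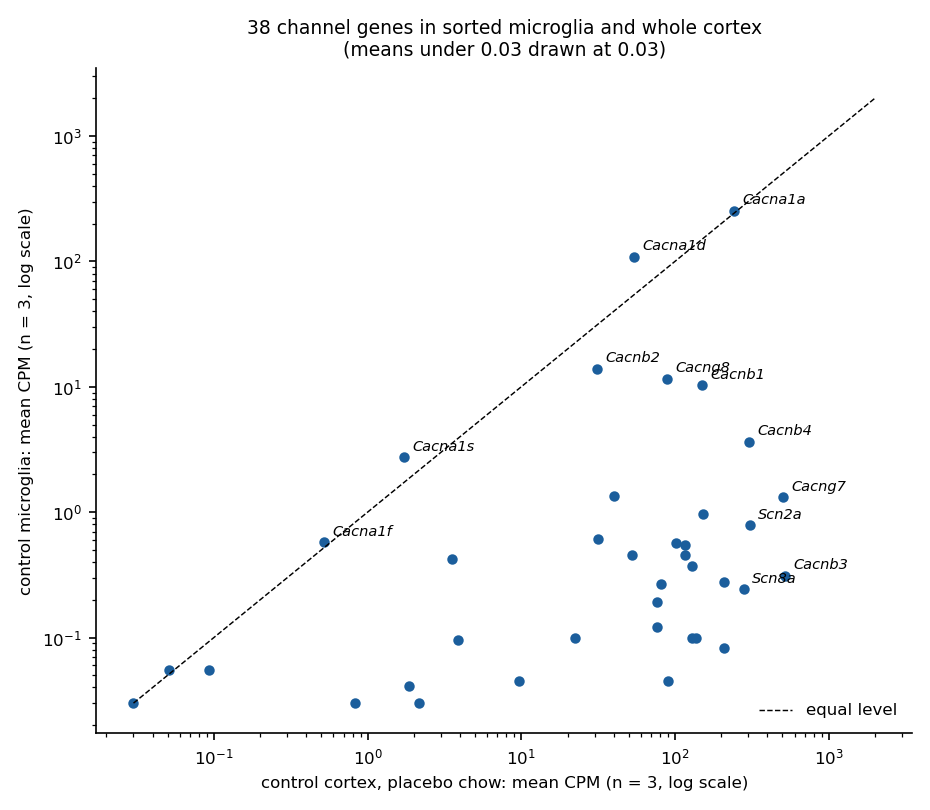
Mean CPM of 38 channel genes in control microglia (vertical, log scale, n = 3) against placebo control cortex (horizontal, log scale, n = 3), with a dashed line of equal level and means under 0.03 drawn at 0.03. Cacna1d lies above the line and Cacna1a on it, Cacnb2 lies below, and the neuronal pores Scn2a and Scn8a fall far below.

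The neuronal sodium channel pores were nearly absent from the sort. Scn2a had 22 counts over the 3 control microglia libraries, Scn1a 13 and Scn8a 7, at 0.256, 0.389 and 0.0872% of the cortical CPM. Cacnb3, at 516.6 CPM in cortex, had 0.312 CPM in control microglia. Cacna1b and Cacna1e, the other pores of the Cacna1a family, stood at 0.37 and 0.967 CPM in control microglia, whereas Cacna1a was at 253.5 CPM. Neuronal markers summed to 12.1 to 14.7 CPM in the same libraries, over 10 genes. In all, 22 channel genes stood under 1% of their cortical CPM and 30 under 10%.

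Most partner genes were also lower. Of 89 tested, 84 were lower and 2 higher in control microglia than in cortex, against 38.7% lower and 32.1% higher over all genes. The 2 higher ones, named after their values were seen, were Kcnd1, an A-type potassium channel pore, at 141 CPM in microglia and 11.4 CPM in cortex, and Rrad, a small GTPase that binds calcium channel beta subunits, higher by 2.53 ± 0.44 on the log2 scale (adjusted p = 0.00162). Gria2, an AMPA receptor subunit of the kind Cacng8 escorts, was at 0.253 CPM in control microglia and 546.6 CPM in cortex.

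MSA microglia had less Cacna1a and Cacng8 RNA than control microglia. Cacna1a (NM_007578, chr8:84415364-84640249, plus strand, mm10) had 131.8, 127.9 and 129.7 CPM in MSA microglia, against 251.2, 258.5 and 250.8 CPM in control microglia. The groups were far apart and each was tight, at 129.8 ± 1.93 CPM in MSA and 253.5 ± 4.34 CPM in control microglia (SD, n = 3 each). The log2 difference was -1.01 ± 0.06 (adjusted p = 2.52e-05). It passed in each of the alternative settings run, and over the 6 fits that left out 1 library it ranged from -1.03 to -0.99.

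Cacng8 (NM_133190, chr7:3394042-3415605, plus strand) had 5.95, 2.94 and 5.04 CPM in MSA microglia, from 43, 26 and 30 counts, against 11.8, 12.2 and 10.9 CPM in control microglia, from 88, 100 and 132 counts. The groups did not overlap. The log2 difference was -1.38 ± 0.24 (adjusted p = 0.0306). The call was lost without control replicate 2 (adjusted p = 0.112), control replicate 3 (0.120), MSA replicate 2 (0.0720) or MSA replicate 3 (0.0910). Each was a fit that pools the spread, and the direction was kept. It was also lost with a replicate block (adjusted p = 0.0517, edgeR). Cacna1a and Cacng8 were the 2 called of 9 channel genes tested, where 0.61% of all genes tested passed, 0.423% higher and 0.186% lower.

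The start of Cacng8 is printed beside those of Cacna1d, the gene above cortex in microglia. Each is 300 bases from RefSeq on GRCm38.p6, capitals again mark the PU.1 core, and the RefSeq table used held no window for Cacna1a.
Cacng8 promoter (chr7:3393792-3394091, plus strand): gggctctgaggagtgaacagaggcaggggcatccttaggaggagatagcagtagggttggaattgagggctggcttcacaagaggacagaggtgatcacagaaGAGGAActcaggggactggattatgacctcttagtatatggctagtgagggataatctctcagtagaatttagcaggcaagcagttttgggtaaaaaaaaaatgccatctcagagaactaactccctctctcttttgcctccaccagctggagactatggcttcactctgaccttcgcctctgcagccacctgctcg
Cacna1d promoter 1 (chr14:30353437-30353736, minus strand): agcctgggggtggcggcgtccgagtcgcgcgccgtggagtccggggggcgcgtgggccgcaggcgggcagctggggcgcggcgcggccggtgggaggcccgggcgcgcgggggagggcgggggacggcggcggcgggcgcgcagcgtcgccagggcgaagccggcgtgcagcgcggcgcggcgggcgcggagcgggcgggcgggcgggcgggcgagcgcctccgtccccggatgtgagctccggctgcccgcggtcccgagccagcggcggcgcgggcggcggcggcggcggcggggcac
Cacna1d promoter 2 (chr14:30491107-30491406, minus strand): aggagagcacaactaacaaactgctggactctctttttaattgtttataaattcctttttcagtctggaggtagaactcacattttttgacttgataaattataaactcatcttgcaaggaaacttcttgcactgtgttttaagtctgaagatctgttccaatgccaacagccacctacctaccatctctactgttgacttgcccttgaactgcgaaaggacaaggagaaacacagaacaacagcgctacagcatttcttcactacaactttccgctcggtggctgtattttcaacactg
The Cacng8 window holds 2 CpG dinucleotides and 1 PU.1 core. The Cacna1d windows hold 63 and 4 CpG dinucleotides and no PU.1 core, and promoter 1 is the start of the transcript NM_001302637 to which the deposited table assigns the gene's counts. That no core lies in a window says only that these letters are not in it.

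The other channel genes of microglia did not pass. Cacna1d averaged 124.3 ± 3.34 CPM in MSA and 109.3 ± 12.5 CPM in control microglia (SD, n = 3 each), a log2 difference of 0.14 ± 0.08 (adjusted p = 0.586). Cacnb1 was at 9.62 ± 1.16 CPM in MSA and 10.2 ± 0.755 CPM in control microglia, and Cacnb2 at 15.2 ± 1.67 CPM in MSA and 14.0 ± 3.57 CPM in control microglia. Cacnb4, a beta subunit, had 46 counts over the MSA and 103 over the control libraries, with a log2 difference of -0.80 ± 0.36 (adjusted p = 0.465). Of the 38 partner genes tested in microglia, 0 passed by edgeR or DESeq2, and 8 had an unadjusted p under 0.05, where 10.7% of all genes did.

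**Figure D4:**
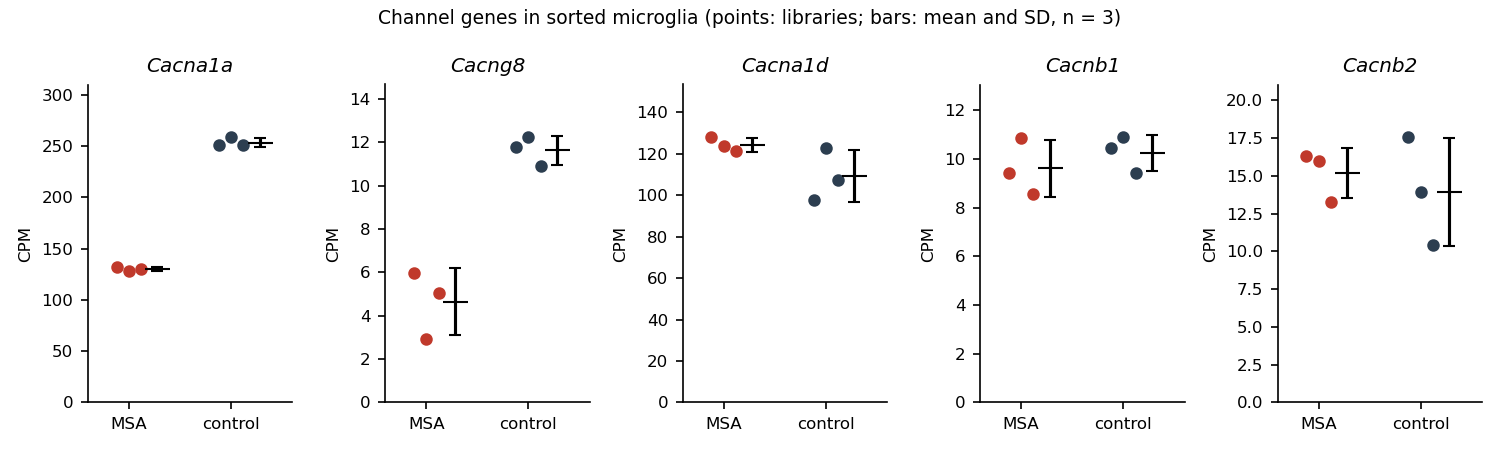
CPM of 5 channel genes in sorted microglia, with 1 point per library, MSA left and control right, and the mean and SD (n = 3) as bars. The MSA points of Cacna1a and Cacng8 lie below all control points, and the groups overlap in the other 3 genes.

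Of the marker lists, 3 separated the genotypes in the sort. Oligodendrocyte precursor cell markers summed to 13.24 to 13.7 CPM in MSA, against 2.81 to 3.62 CPM in control microglia, over 10 genes. Mural cell markers summed to 14.12 to 15.92 CPM in MSA, against 5.49 to 8.07 CPM in control microglia, over 10 genes. Both lists hold Cspg4, a proteoglycan of these cells, at 10.94, 9.85 and 10.75 CPM in MSA, against 0.402, 0.245 and 0.495 CPM in control microglia. This 1 gene made up most of the MSA sum in both lists, and without it the sums overlapped between the genotypes. In each of these 2 lists 2 of 10 genes lay above and 1 of 10 below control in every MSA library, and Pdgfra, which marks these precursors, was at 0.679 CPM or less in all 6 libraries. Oligodendrocyte markers summed to 116 to 132.6 CPM in MSA, against 133.4 to 185 CPM in control microglia, with 1 of 10 genes above and 2 of 10 below. Choroid plexus markers summed to 854, 1625 and 1204 CPM in MSA microglia, against 526, 1189 and 727 CPM in control microglia, over 10 genes. Microglial markers summed to 55318, 57385 and 55465 CPM in MSA, against 55301, 57403 and 58213 CPM in control microglia. Their part in the Cacna1a and Cacng8 differences was not tested.

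Called genes near Cacna1a and Cacng8 were 3.70% and 10.5% of those tested, against 0.61% of all genes tested in microglia, on 2 genes each. Of the 54 other genes tested with a start within 1 Mb of that of Cacna1a, 2 passed, both higher in MSA microglia. They were Scoc, at 68.7, 69.4 and 76.5 CPM in MSA and 0.804, 1.83 and 1.32 CPM in control microglia, and Prdx2, a peroxiredoxin, with a log2 difference of 0.49 ± 0.09 (adjusted p = 0.039). Of the 19 other genes tested near Cacng8, 2 passed, both lower. Lilra6 had 0.138, 0.34 and 0.336 CPM in MSA and 4.42, 5.26 and 3.63 CPM in control microglia, and Pirb, an inhibitory immunoglobulin-like receptor, had a log2 difference of -0.71 ± 0.12 (adjusted p = 0.0259). Called genes were 13 of 929 tested on chromosome 7 and 10 of 656 on chromosome 8, the highest counts of any chromosome. The exons of Cacna1a overlap those of an antisense gene, Gm16183, by 435 bases, and those of Cacna1d overlap Chdh, on the opposite strand, by 589 bases. The sources used here do not say if strand entered the counting. Chdh averaged 11.0 CPM in MSA and 9.61 CPM in control microglia.

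In bulk tissue neither the transgene nor the diet moved a channel gene past the threshold by edgeR in the main fits. The comparison of MSA with control mice over all 30 libraries had 0 of 37 genes past the threshold by edgeR and 0 by DESeq2, where 1.49% of all genes tested passed. At an unadjusted p under 0.05 there was 1 gene, against 8.5% of all genes. PLX5622 against placebo had 0 of 37 by edgeR and 1 by DESeq2, where 2.15% of all genes passed by edgeR and 496 genes by DESeq2. At an unadjusted p under 0.05 there were 4, against 11.8% of all genes. The gene called by DESeq2 was Cacnb4, higher on PLX5622 by 0.31 ± 0.09 (adjusted p = 0.0359), for which edgeR gave 0.32 ± 0.10 (adjusted p = 0.111). Cacna1a had a log2 difference between MSA and control mice of -0.11 ± 0.16 (adjusted p = 0.962) and Cacng8 of 0.15 ± 0.18 (adjusted p = 0.942). The sign of the Cacna1a value turned to 0.02 without the control striatum PLX5622 libraries.

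The genotype differences in microglia and in placebo bulk tissue were compared in 1 fit of all 36 libraries, a comparison added after the data were seen. The microglial difference minus the bulk mean was -1.34 ± 0.36 for Cacna1a (adjusted p = 0.234) and -1.95 ± 0.46 for Cacng8 (adjusted p = 0.114). By edgeR 0 of 37 channel genes passed, where 0.146% of all genes passed, and 2 had an unadjusted p under 0.05, against 4.33% of all genes. DESeq2 called 1, Cacng8, at -1.95 ± 0.50 (adjusted p = 0.0399), and 37 of all genes.

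Region by region, no channel gene passed by edgeR in the main fits, which had no replicate term. Some edgeR alternatives, among them a replicate block in striatum, did call channel genes, as given in the part on processing. In cortex (35 channel genes tested) 0 passed in any of 5 comparisons by edgeR or DESeq2. The counts at an unadjusted p under 0.05 were 2 for PLX5622 in control mice, 2 for PLX5622 in MSA mice, 2 for MSA on placebo, 0 for MSA on PLX5622 and 3 for the interaction of genotype and diet. Over all genes the shares at that p were 2.86, 4.42, 3.52, 2.82 and 3.77%. In the order of that list, 0.486, 0.0548, 0.00, 0.151 and 0.0959% of all genes passed the adjusted threshold. In corpus callosum (35 tested) 0 passed by edgeR or DESeq2, where 0.46, 0.0693, 0.321, 0.195 and 0.264% of all genes passed. There 0, 6, 4, 2 and 2 genes had an unadjusted p under 0.05, against 3.91, 8.48, 8.53, 4.46 and 4.70% of all genes. In striatum (34 tested) 0 passed by edgeR, where 0.336, 0.074, 0.0336, 0.222 and 0.0874% of all genes passed. There 1, 5, 2, 4 and 2 genes had an unadjusted p under 0.05, against 2.25, 13.8, 3.75, 11.0 and 5.00% of all genes. DESeq2 called Cacna1g in striatum for PLX5622 in MSA mice and for MSA on placebo, and 0 channel genes in the other 3. In those 2 comparisons DESeq2 called 264 and 27 of all genes, more than edgeR's 11 and 5.

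Cacna1g came closest to a genotype and diet effect. In striatum it had 19.3 and 17.2 CPM in MSA mice on PLX5622, 68.3, 95.8 and 51.9 CPM in MSA mice on placebo, 16.9 and 26.9 CPM in control mice on PLX5622 and 31.5 and 21.4 CPM in control mice on placebo. All 3 placebo MSA libraries lay above the other 6 striatal libraries. The diet difference in MSA mice was -1.96 ± 0.32 on the log2 scale (adjusted p = 0.0613 by edgeR, 4.92e-06 by DESeq2). The genotype difference on placebo was 1.46 ± 0.31 (adjusted p = 0.351 by edgeR, 0.00764 by DESeq2). The interaction in striatum was -1.73 ± 0.45 (adjusted p = 0.802).

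In cortex Cacna1g had 112, 91.9 and 163 CPM in MSA mice on PLX5622, against 200.5, 173 and 239 CPM in MSA mice on placebo, with no overlap. Control cortex had 208, 113 and 224 CPM on PLX5622, against 180, 164 and 69.8 CPM on placebo, and these overlapped. In corpus callosum all 4 groups overlapped, between 87.8 and 159 CPM. Over the 3 regions the interaction was -1.16 ± 0.30 (adjusted p = 0.108 by edgeR, 0.0299 by DESeq2).

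Other measures also varied among these striatal libraries. The placebo MSA library of 68.3 CPM, replicate 1, had cortical neuron markers at 2674 CPM and striatal markers at 7149 CPM. Replicates 2 and 3 had cortical markers at 1474 and 1093 CPM and striatal markers at 10649 and 10951 CPM, and the placebo control libraries had cortical markers at 1256 and 1569 CPM and striatal markers at 10440 and 12319 CPM. Over the 9 fits that left out 1 library the diet difference in MSA mice kept its sign and passed in 4, with adjusted p values from 0.0222, without replicate 1, to 0.453. Choroid plexus markers reached 68.8, 457 and 3907 CPM in the 3 placebo MSA libraries, and their part in the Cacna1g values was not tested.

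**Figure D5:**
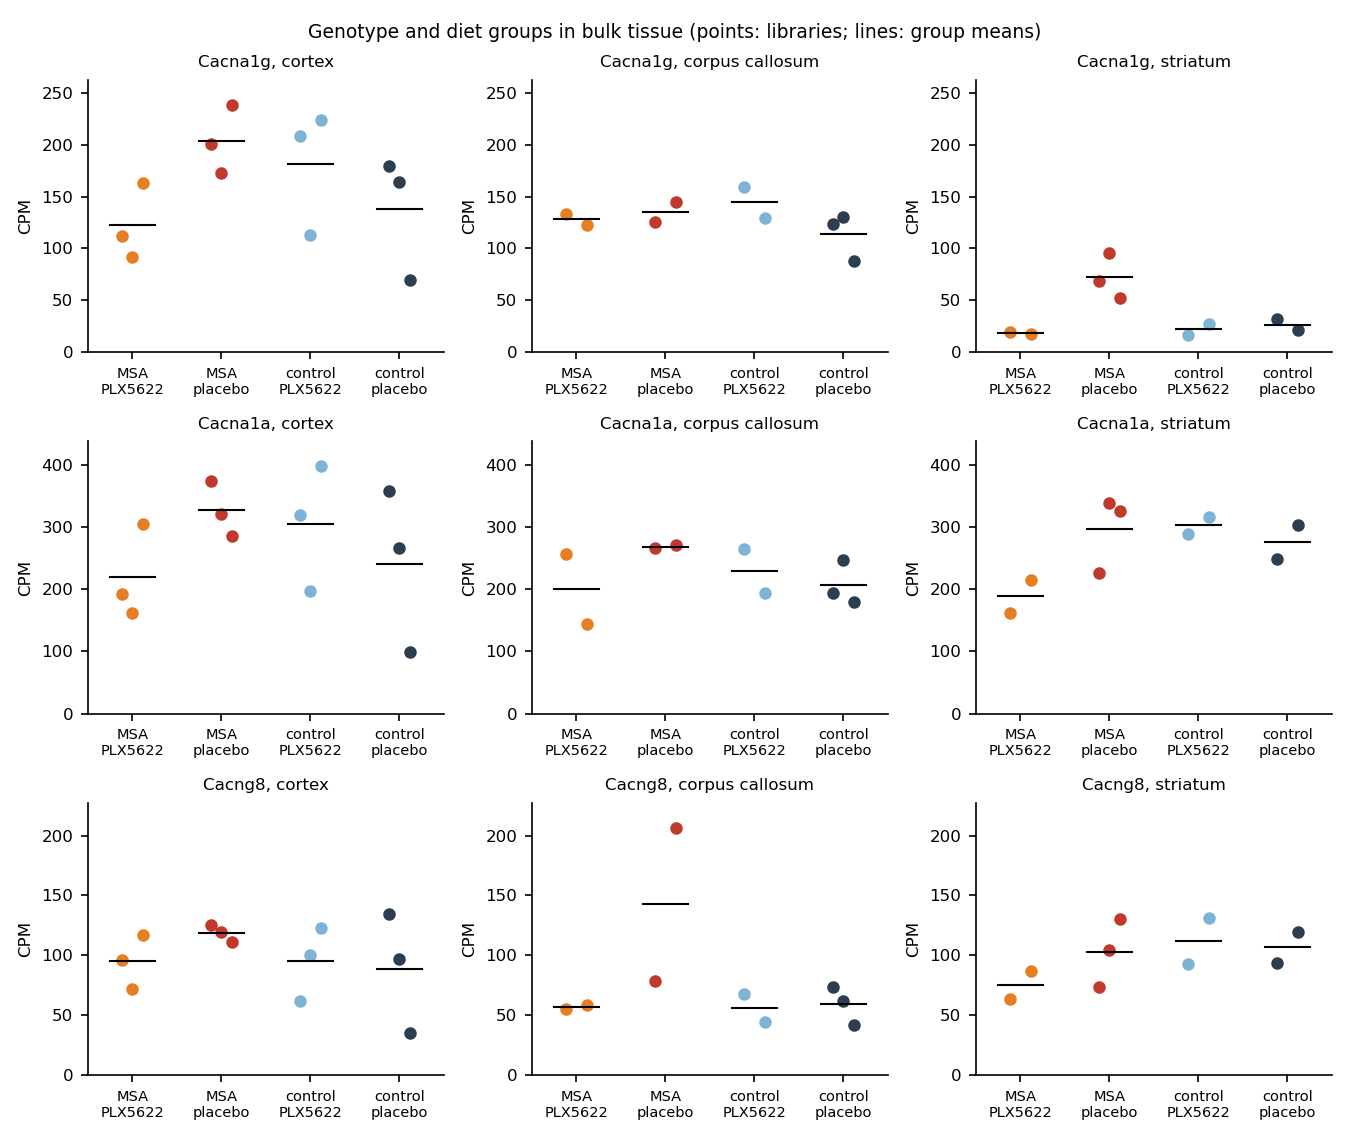
CPM of Cacna1g, Cacna1a and Cacng8 in the 4 genotype and diet groups of each bulk region, with 1 point per library and a line at the group mean. In striatum the 3 placebo MSA libraries of Cacna1g lie at 51.9 to 95.8 CPM and the others at 16.9 to 31.5 CPM, in corpus callosum both placebo MSA libraries of Cacna1a and of Cacng8 lie above the other 7, and in striatum both MSA libraries on PLX5622 lie below the other 7 for Cacna1a.

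Cacna1a and Cacng8 themselves varied widely in bulk tissue. In placebo cortex Cacna1a had 373, 321 and 286 CPM in MSA mice, against 358, 265 and 99.1 CPM in control mice. In placebo corpus callosum it had 265.5 and 270.5 CPM in MSA mice, against 194, 247 and 180 CPM in control mice, a log2 difference of 0.39 ± 0.28 (adjusted p = 0.709). In placebo striatum it had 227, 339 and 326 CPM in MSA mice, against 249 and 303 CPM in control mice. Cacng8 in placebo corpus callosum had 78.6 and 206.5 CPM in MSA mice, against 73.4, 61.5 and 42.2 CPM in control mice, a log2 difference of 1.29 ± 0.39 (adjusted p = 0.352). It ranged from 0.43 to 1.83 over the fits that left out 1 library. In placebo cortex and striatum the Cacng8 groups overlapped. On PLX5622 Cacna1a in striatum averaged 188.6 ± 37.6 CPM in MSA mice and 302.6 ± 19.7 CPM in control mice (SD, n = 2 each), a log2 difference of -0.68 ± 0.26 (adjusted p = 0.44, edgeR).

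The interaction of genotype and diet leaned one way across the channel genes. Over the 30 bulk libraries, 0 of 37 passed by edgeR and 1, Cacna1g, by DESeq2. Of all genes, 0.361% passed by edgeR and 143 genes by DESeq2. At an unadjusted p under 0.05 there were 11 of the 37, against 12.7% of all genes. A value below 0, meaning a lower PLX5622 effect in MSA than in control mice, was found for 30 of 37 genes, against 51.1% of all genes tested, with medians of -0.39 over the channel genes and -0.01 over all genes. Of the 33 genes tested in all 3 regions, 20 were below 0 in each. After Cacna1g, the smallest unadjusted p values belonged to Cacna1b (-0.82 ± 0.31), Scn1a (-0.65 ± 0.25), Cacna1a (-0.83 ± 0.32) and Scn8a (-0.998 ± 0.385), with adjusted p values from 0.32 to 0.33. These genes share libraries and vary together, and neuronal markers varied as well. Neuronal markers summed to 3262 and 4850 CPM in the MSA striatal libraries on PLX5622 and 5189 to 5494 CPM in those on placebo, and their part in these values was not tested. Placebo control cortex replicate 3 was low in many channel genes, with Cacnb1 at 53.8 CPM against 221 and 172 CPM, and under 70% of its reads were assigned to genes. PLX5622 control cortex replicate 1 was also under 70% and had the lowest channel gene sum of the bulk libraries, 1249 TPM. Its Cacnb1 stood at 119 CPM against 164 and 216 CPM in the other replicates of that group.

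Few partner genes passed in the bulk genotype and diet comparisons. Of 91 tested, 0 passed by edgeR or DESeq2 for MSA against control over the 3 regions, with 8 at an unadjusted p under 0.05, where 8.5% of all genes were. For PLX5622 0 passed by edgeR and 2 by DESeq2, where DESeq2 called 496 of all genes. There were 13 at an unadjusted p under 0.05, where 11.8% of all genes were. Kcnab3, a potassium channel beta subunit, was the only partner gene called by edgeR in a genotype or diet comparison of a region. It was lower on PLX5622 in MSA striatum, at a mean of 6.67 CPM against 28.1 CPM on placebo, a log2 difference of -2.05 ± 0.30 (adjusted p = 0.033, edgeR). There 90 partner genes were tested, and 0.074% of all genes passed. DESeq2 called 4 partner genes there, and 1 for MSA on placebo in corpus callosum, where it called 264 and 229 of all genes. Kcnab3 was lower in striatum than in cortex by -2.77 ± 0.17 on the log2 scale. Placebo MSA striatal replicate 1 had cortical neuron markers at 2674 CPM, and their part in this difference was not tested.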

How the data were processed

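The submitters' processing notes name STAR, HOMER, DESeq2 and the mouse build mm10, without versions; the sources used here do not give the counting settings. The authors deposited whole-number counts per gene, not normalised, and a table of the same libraries in TPM, whose deposited values sum to 453451 to 559022 per library. Tests used the counts. Comparisons between genes used the TPM, and levels of 1 gene used CPM computed here from the counts in genes.

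Libraries were grouped by title and group tag. Counts in genes were 59.5 to 84.5% of the header total, with 6 libraries under 70%. The filter was filterByExpr at a minimum count of 10 and the scaling TMM. The main test was edgeR 4.0.16 (R 4.3.3), quasi-likelihood with robust fitting, 2-sided, adjusted by Benjamini-Hochberg over all genes tested at a threshold of 0.05. Each region was fitted with its 4 groups, region contrasts on all 30 bulk libraries, microglia alone, and microglia against cortex on those 6 libraries. Standard errors are the log2 change over the root of F. The tests were tried on simulated counts. The floor of 3 counts covers counting error only. Promoters are RefSeq's on GRCm38.p6, and exon overlaps are GENCODE's on the same build. Alternatives were DESeq2 1.42.0, RLE size factors, no filter, a replicate block, each library left out, smaller sets of libraries and, chosen after seeing the data, 2 callosal libraries left out and the comparison of microglia with bulk tissue.

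The members and lists were chosen with earlier results of these data known. Given in full were Cacna1a and Cacng8, members called in a genotype, diet or microglia comparison, and the 6 called members of largest fold each way between regions. Cacna1g was added because it came closest to a call. The values of 2 channel genes, which enter the counts and sums, are not reported here.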

Additional observations from a re-analysis of the deposited data

Results flagged for a closer look

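Cacna1a and Cacng8 were flagged because every MSA library lay above every control library in placebo corpus callosum and below every control library in sorted microglia. The callosal order was not particular to them, and the share of all genes with it was not counted. Cacna1b, Cacna1c, Cacna1e, Cacna1i, Cacng5 and Scn8a had the same callosal order. Scn8a, for example, had 320 and 365 CPM in MSA, against 223, 220 and 189 CPM in control mice. For Cacna1a the genotype difference was 0.39 on the log2 scale in corpus callosum (2 MSA and 3 control libraries) and -1.01 in microglia. For Cacng8 it was 1.29 in corpus callosum and -1.38 in microglia. The callosal values did not pass the test, and the difference between corpus callosum and microglia alone was not tested. The microglial difference minus the mean of the 3 bulk regions was -1.34 for Cacna1a (adjusted p = 0.234) and -1.95 for Cacng8 (adjusted p = 0.114) by edgeR.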

How the results depend on the processing

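The region comparisons moved most with fewer libraries. With placebo control libraries alone, 2 channel genes passed between corpus callosum and cortex, against 17 with all libraries. Between striatum and cortex 14 passed (27 with all), and between corpus callosum and striatum 9 (20 with all). Calls over all genes fell as well, to 473 from 4822, to 2077 from 6312 and to 980 from 4875. Without the control striatum PLX5622 libraries, 11 channel genes passed between corpus callosum and cortex, where 3598 of all genes did. The bulk genotype value of Cacna1a then turned to 0.02. Leaving out each library in turn gave 10 to 21 between corpus callosum and cortex, with 10 or 11 without callosal placebo control replicate 3, callosal PLX5622 control replicate 2, cortical placebo control replicate 2, cortical PLX5622 control replicate 3 or cortical PLX5622 MSA replicate 3. It gave 22 to 29 between striatum and cortex and 17 to 22 between corpus callosum and striatum.

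In corpus callosum, leaving out libraries under 70% assigned gave 1 call each for PLX5622 in controls, MSA on PLX5622 and their interaction, against 0. Leaving out each library in turn gave 0 to 1, 0 to 1 and 0 to 3, the highest without PLX5622 control replicate 2. Without the libraries under 70% assigned, each callosal PLX5622 group holds 1 library, so MSA on PLX5622 is compared as 1 library against 1. Without PLX5622 control replicate 2, the control PLX5622 group holds 1 library. A group of 1 library is assumed to vary like the other groups, so these calls have no replication there. Calls over all genes rose in these fits as well. The calls were Scn1a in the first 2, and Cacna1i, Scn1a and Scn8a in the interaction. For PLX5622 in MSA striatum the range was 0 to 3. Without placebo MSA replicate 1, 3 passed (Cacna1a, Cacna1g, Cacna2d2), where 824 of all genes did, against 11 in the main fit. Without placebo MSA replicate 3, 1 passed (Cacna1g), where 9 of all genes did. Leaving out PLX5622 control replicate 1 or replicate 2 leaves 1 library in that group, and the Cacna1g difference was then -1.96. DESeq2 and no filter each gave 1 for PLX5622 in MSA striatum, where 264 and 89 of all genes passed. Each also gave 1 for MSA on placebo in striatum, where 27 and 17 of all genes passed. DESeq2 gave 1 for PLX5622 over bulk tissue, 1 for the bulk interaction and 1 for microglia minus bulk. In these 3, 496, 143 and 37 of all genes passed by DESeq2. In microglia 1 to 2 passed, with 1, Cacna1a, without control replicate 2 or 3 or MSA replicate 2 or 3.

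Same-numbered libraries deviated together (correlation over 0.1) for striatum in 7 of 10 pairs and for cortex in 6 of 18. For corpus callosum they did so in 2 of 10 pairs and for microglia in 1 of 3. The main fits did not take the numbers as pairs. In a group of 2 libraries the deviations mirror each other, so the striatal pairs are not separate observations. Between MSA mice on PLX5622 and on placebo the striatal correlations were -0.223 and 0.117. Between MSA and control mice on PLX5622 the correlation was 0.016. These values do not settle whether the numbers mark pairs. The main striatal fits, which called no channel gene, were made without pairing. A replicate block gave 7 calls for PLX5622 in MSA striatum and 11 for MSA on PLX5622 in striatum, where over all 14872 genes the calls were 1349 and 1908, against 11 and 33 without it. It gave 1 in microglia, where Cacng8 reached an adjusted p of 0.0517. In striatum 5 of 9 libraries correlated best with their own number.

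The cause of these changes was not tested. Of 492 counts of called channel genes under alternatives, 339 set 0 against 0, 120 others lay within 1.5 times the reported count and 33 did not. Groups of 2 or 3 libraries limit the bulk comparisons, and under 10 counts per library limits most channel genes in microglia.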
